A study of Mus musculus with 2 samples.

Results

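Histone-modifying enzyme genes were examined in an ATAC-seq comparison of mouse hematopoietic stem cells, in which a transposase cuts accessible DNA and tags it for sequencing. The genes were chosen by name, as every protein-coding gene of the mouse RefSeq table (mm10, chromosomes 1 to 19, X and Y) whose symbol is Kdm, Kmt, Setd, Setdb, Prmt, Hdac, Sirt or Kat followed by a digit. This gave 70 genes of 21887. Both groups were stem cells of the CD48-CD150+LSK phenotype from the bone marrow of wild-type C57BL/6J mice, and no other genetic change was labelled in either. The control cells were transduced with the pMSCV retrovirus, and the treated cells with MSCV-H1C, which carries the linker histone H1C and was labelled as H1C overexpression. Each group held 1 library of about 1000 cells, with no age or sex of the mice and no count of mice given in the sources used here. No difference below therefore has a replicate check. An accessibility list does not show whether H1C was expressed, or in what share of the cells.

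These enzymes place and remove small chemical groups on histones, the proteins around which DNA is wound. Lysine methyltransferases (Kmt, Setd, Setdb) and arginine methyltransferases (Prmt) add methyl groups, and demethylases (Kdm) take them off lysines. Acetyltransferases (Kat) loosen the contact of histones with DNA by acetylating lysines, and classical deacetylases (Hdac) and NAD-dependent deacylases (Sirt) reverse this. In blood stem cells several of them are known regulators of self-renewal and lineage choice, among them the methyltransferase Kmt2a, a frequent partner in leukemic gene fusions, and the demethylase Kdm1a.

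The measurements were the accessible regions (peaks) of each library, called separately. For each peak the authors' list gives the fold of the summit over local background, −log10 p, −log10 q and the summit's offset from the peak's left end. The summit pileup, the number of reads or fragments stacked at the highest point, was recovered from the fold and −log10 p. A gene-end peak is one within 1000 bp of either outermost end of a gene, and where a gene had several, the one with the highest pileup stands for it. All other peaks in the gene body and its 10 kb flanks were counted apart. The control list held 32005 peaks and the H1C list 13156. The genome-wide background was 3.99 in control and 4.40 in H1C, so pileup ratios of H1C to control were divided by 1.10, and they are given on the log2 scale with a 95% interval for counting error. At stem cell marker genes, 7 of 10 had a gene-end peak in control and 1 of 10 in H1C (Mllt3, with pileups of 70 and 33), and Procr and Mecom had none in either. Cd48, which the sort selects against, had a control peak with a pileup of 23. Of markers of other cells, a control gene-end peak lay at 1 of 3 T cell, 2 of 3 B cell, 1 of 4 granulocyte and monocyte, 1 of 4 erythroid and megakaryocyte and 2 of 4 endothelial and stromal genes, and an H1C peak at 2 B cell genes (Cd79a and Ms4a1). Cd4, Cd8a, Mpo, Elane, Gata1 and Klf1 had none in either list. The part of other cells in the results below was not tested.

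Most histone-modifying enzyme genes were accessible at a gene end in control, and most of those were also called after H1C. A control gene-end peak was present at 58 of the 70 genes, or 82.9%, against 46.9% of all protein-coding genes. Of these 58 genes, 47 also had a gene-end peak in H1C, a kept share of 81.0% (exact Clopper-Pearson 95% interval 68.6 to 90.1), against 71% of all genes with a control gene-end peak. A peak in control alone was found at 11 enzyme genes, against 29% of all genes with a control gene-end peak, and a peak in H1C alone at 1, Kdm2a, against 0.288% of all genes. The other 11 had no gene-end peak in either list, against 52.8% of all genes. In the H1C list, 48 of the 70 genes had a gene-end peak, against 33.6% of all genes. Over gene bodies and flanks together, 68 of the 70 genes had a control peak, against 66.3% of all genes, and 61 an H1C peak, against 49.8%. The 2 with no peak at all were Kdm5d, a demethylase gene on chromosome Y, and Prmt8, an arginine methyltransferase known mainly from brain.

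By class, the fewest genes without any gene-end peak were among the lysine methyltransferases and the sirtuins. All 18 lysine methyltransferase genes had a control gene-end peak, and 15 kept one in H1C (83.3%, 58.6 to 96.4). All 7 sirtuin genes had one in both libraries (100%, 59.0 to 100). Of the 18 demethylase genes, 12 had a control gene-end peak and 11 kept it (91.7%, 61.5 to 99.8). Of the 8 arginine methyltransferase genes, 7 had one and 4 kept it (57.1%, 18.4 to 90.1). Of the 11 classical deacetylase genes, 7 had one and 5 kept it, and of the 8 acetyltransferase genes likewise 7 had one and 5 kept it (both 71.4%, 29.0 to 96.3). The intervals of all 6 classes overlap and all take in the 71% of all genes, and no test between classes was made.

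**Figure D1:**
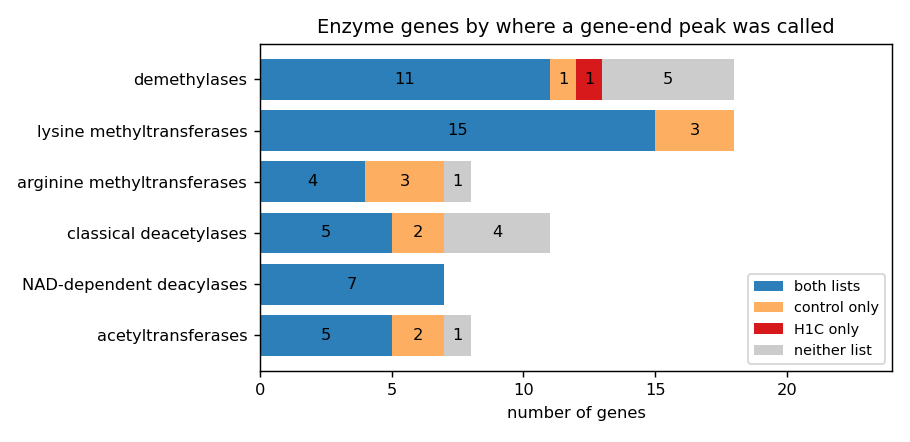
Number of genes (horizontal axis) in each of the 6 enzyme classes (vertical axis) with a gene-end peak in both lists, in control only, in H1C only or in neither. Lysine methyltransferases and NAD-dependent deacylases have no gene without a peak, and the 1 gene with a peak in H1C only is a demethylase, Kdm2a.

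Whether a gene kept its peak went with the height of the control peak. The control-only enzyme genes had control pileups of 24 to 65 with a median of 34, and the 47 kept genes had a median of 59. At pileups of 21 to 30, 3 of 6 enzyme genes were kept, and at 31 to 40, 5 of 12. At 41 to 60 all 16 were kept, at 61 to 80 it was 12 of 13, and above 80 all 11. Over all protein-coding genes the shares in the same steps were 23.3%, 51.6%, 86.6%, 98.2% and 99.3%. The enzyme genes' control pileups had a median of 56.5, against 49 for all genes with a control gene-end peak, and none was at or under 20, where 7.50% of all genes were kept. The median fold of the enzyme peaks was 6.90 within the control list and 5.26 within the H1C list, against 6.81 and 5.25 for all genes.

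**Figure D2:**
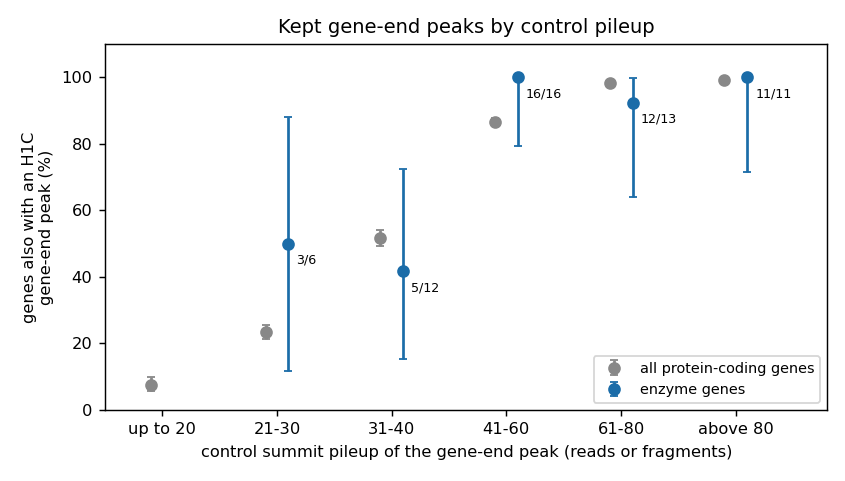
Share of genes with a control gene-end peak that also had one in H1C (vertical axis, percent) by the control summit pileup (horizontal axis, reads or fragments), for all protein-coding genes (grey) and the enzyme genes (blue). Bars are exact 95% intervals, and the fractions give kept enzyme genes over those with a control peak, from 3/6 at pileups of 21 to 30 to 11/11 above 80.

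At the 47 enzyme genes with a peak in both libraries, the H1C pileup was lower in each after scaling by the genome-wide background. The ratio lay below 0 for all 47, as for 99.3% of all genes in both lists, and its interval lay wholly below 0 for 34 of them (72.3%), against 76.6% of all. The median was −0.83 (quartiles −1.08 and −0.62), against −0.85 for all genes. A ratio exists only where an H1C peak was called. Scaled instead by the local background at shared peaks (a ratio of 0.872), every ratio is higher by 0.34, the medians become −0.49 for the enzyme genes and −0.51 for all genes, and 44 of the 47 stay below 0. The 3 that then reach or pass 0 are Sirt5 (0.05), Setd2 (0.04) and Sirt2 (0.0046), and the interval then lies wholly below 0 for 19 (40.4%), against 36.2% of all genes. On the genome-wide scale, 17 of the 47 lay below −1 (36.2%), against 29.7% of all genes in both lists. By class the median was −1.07 for lysine methyltransferases (15 genes), −1.03 for demethylases (11), −0.87 for acetyltransferases (5), −0.78 for arginine methyltransferases (4), −0.70 for classical deacetylases (5) and −0.61 for sirtuins (7). Of the 26 kept demethylase and lysine methyltransferase genes 15 lay below −1, and of the 21 in the other 4 classes 2 did, Kat6a and Hdac5. This split was noticed in the values, no test of it was made, and on the local scale none of the 47 lay below −1. The single-gene intervals are wide, and within every class those of the lowest and the highest gene overlap.

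**Figure D3:**
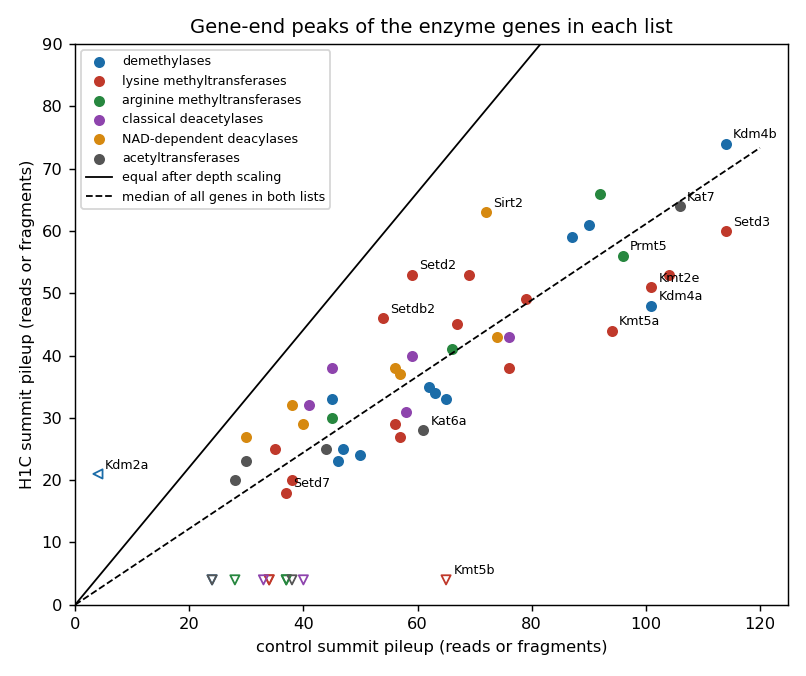
Summit pileup in H1C (vertical axis) against control (horizontal axis), in reads or fragments, for each enzyme gene's gene-end peak, coloured by class. Every point lies under the solid line of equal height after scaling by the genome-wide background. The dashed line is the median of all genes, and open triangles drawn at the margins are genes called in 1 list only, with Kmt5b the highest of the control-only genes.

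**Figure D4:**
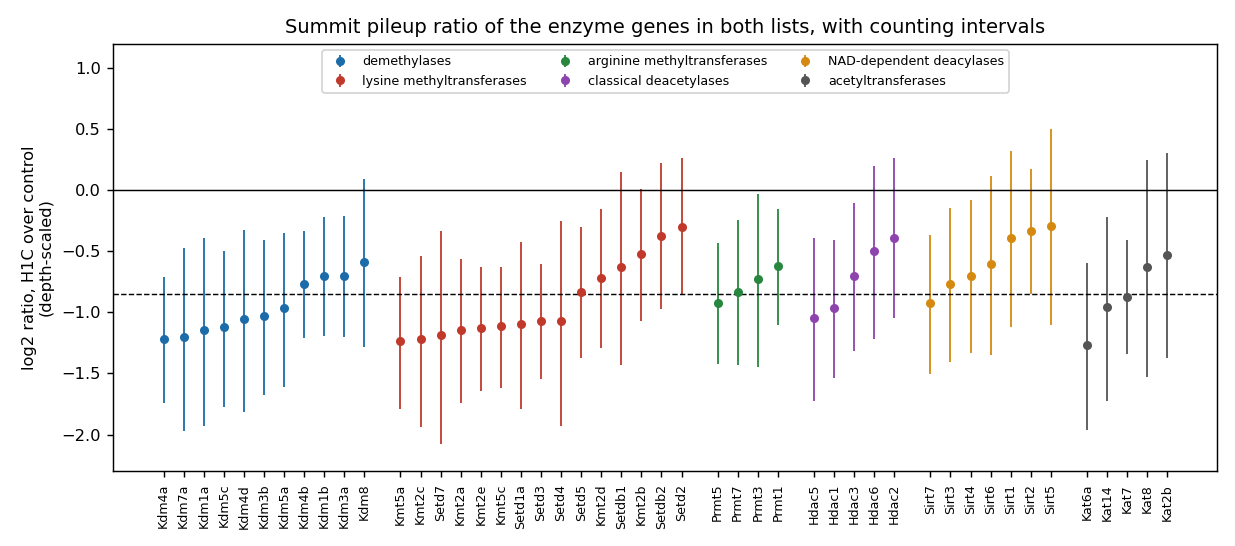
Log2 ratio of summit pileups, H1C over control, after depth scaling (vertical axis) for the 47 enzyme genes in both lists (horizontal axis), ordered within each class, with exact 95% counting intervals. The dashed line is the median of all genes, −0.85, and the genes run from −1.27 (Kat6a) to −0.29 (Sirt5).

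The promoters of 6 enzyme genes show the DNA under these peaks, 4 from kept and 2 from control-only genes. They are those for which the RefSeq promoter table had an entry and the control summit lay within 200 bp of the annotated start, among the kept and the control-only gene of each class with the strongest peak and an entry. Kdm4a and Hdac5 thus stand in for Kdm4b and for Hdac1 and Hdac3, which have higher pileups and are not in the table. Each is the 250 bases just before the transcript start, 5′ to 3′ on the gene's own strand, from RefSeq (GRCm38.p6, the mm10 build). Capitals mark matches, on either strand, to short motifs of widely used promoter factors: CGGAAG of ETS factors, GGGCGG of SP and KLF factors, TGCGCA of the factor NRF1, CCAAT of the factor NFY, TGACGT of the cyclic AMP element, AAGATGG of the factor YY1 and AGATAA of the blood factors Gata1 and Gata2. Matches of GGGCGG can overlap one another. Kept were Kdm4a (chr4:118180044-118180293, minus strand), Setd3 (chr12:108179285-108179534, minus strand), Prmt5 (chr14:54517471-54517720, minus strand) and Hdac5 (chr11:102230173-102230422, minus strand). Control only were Hdac11 (chr6:91156565-91156814, plus strand) and Kdm2b (chr5:122989100-122989349, minus strand).
Kdm4a: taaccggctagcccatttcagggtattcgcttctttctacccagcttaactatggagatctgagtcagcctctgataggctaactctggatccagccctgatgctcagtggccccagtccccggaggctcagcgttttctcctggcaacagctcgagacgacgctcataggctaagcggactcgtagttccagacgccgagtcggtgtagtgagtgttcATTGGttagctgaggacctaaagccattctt
Setd3: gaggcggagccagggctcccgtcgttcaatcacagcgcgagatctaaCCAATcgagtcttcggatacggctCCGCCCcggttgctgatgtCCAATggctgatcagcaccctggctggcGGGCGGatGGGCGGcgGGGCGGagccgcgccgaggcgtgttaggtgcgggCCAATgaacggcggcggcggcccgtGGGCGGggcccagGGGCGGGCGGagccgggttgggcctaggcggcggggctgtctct
Prmt5: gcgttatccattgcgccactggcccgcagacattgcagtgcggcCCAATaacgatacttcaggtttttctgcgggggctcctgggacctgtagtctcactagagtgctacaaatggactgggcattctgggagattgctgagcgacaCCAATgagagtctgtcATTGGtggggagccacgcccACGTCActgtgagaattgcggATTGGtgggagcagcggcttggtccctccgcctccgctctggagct
Hdac5: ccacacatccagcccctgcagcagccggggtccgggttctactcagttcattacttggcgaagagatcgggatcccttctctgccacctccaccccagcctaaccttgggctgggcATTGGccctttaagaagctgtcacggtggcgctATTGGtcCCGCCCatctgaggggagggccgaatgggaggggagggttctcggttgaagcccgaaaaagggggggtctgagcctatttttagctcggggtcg
Hdac11: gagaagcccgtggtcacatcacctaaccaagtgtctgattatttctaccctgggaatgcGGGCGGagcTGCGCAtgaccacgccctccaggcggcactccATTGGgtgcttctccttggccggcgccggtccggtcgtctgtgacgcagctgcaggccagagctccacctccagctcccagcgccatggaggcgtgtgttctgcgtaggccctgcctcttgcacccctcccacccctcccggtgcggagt
Kdm2b: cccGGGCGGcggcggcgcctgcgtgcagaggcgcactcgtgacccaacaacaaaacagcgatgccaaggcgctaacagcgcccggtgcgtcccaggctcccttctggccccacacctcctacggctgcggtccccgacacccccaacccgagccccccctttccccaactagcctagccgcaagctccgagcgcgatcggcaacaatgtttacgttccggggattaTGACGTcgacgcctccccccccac
The control summit lay 65 bp before the start at Kdm4a, 150 bp at Setd3, 19 bp at Prmt5, 50 bp at Hdac5, 137 bp at Hdac11 and 195 bp at Kdm2b. The Setd3 and Kdm2b stretches are the richest in G and C (72.0% and 68.0%), with 31 and 27 CG dinucleotides, and Kdm4a the poorest (53.6%, with 12). CCAAT is marked in 5 of the 6 and is absent from the Kdm2b stretch, and GGGCGG is marked in 4 (Setd3, Hdac5, Hdac11 and Kdm2b).

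Over the 58 enzyme genes with an entry in the promoter table, the base composition of kept and control-only genes overlapped. The 250-base stretches had a median G and C content of 60.4% in the 39 kept genes and 56.4% in the 9 control-only genes, against 61.2% and 57.6% for all kept and control-only genes. GGGCGG was found in 23 of 39 kept (59.0%) and 5 of 9 control-only enzyme genes (55.6%), against 65.0% and 51.7% of all kept and control-only genes. CGGAAG was found in 11 of 39 (28.2%) and 3 of 9 (33.3%), against 31.3% and 19.1%. CCAAT was found in 22 of 39 (56.4%) and 3 of 9 (33.3%), against 41.0% and 30.9%. TGCGCA was found in 4 of 39 kept (10.3%) and 5 of 9 control-only enzyme genes (55.6%), while over all genes it was in 15.0% of kept and 7.89% of control-only ones. Over all 32851 entries of the promoter table the shares were 32.7% for GGGCGG, 13.6% for CGGAAG, 33.8% for CCAAT, 6.43% for TGCGCA, 6.47% for TGACGT, 4.49% for AAGATGG and 9.99% for AGATAA. Of all 58 enzyme genes TGACGT was found in 6, AGATAA in 5 and AAGATGG in 2. Each stretch belongs to the start nearest the gene's 5′ end, while a gene's state can come from a peak elsewhere. Among the control-only genes, the control peaks of Kat2a and Kat5 lay 8180 and 7879 bp from the nearest annotated start. Kat5, Kdm2b and Kmt5b had a peak in both lists at an annotated start. Among the kept genes, the leading peaks of Kmt2d and Sirt7 lay at the far end. A match is a run of letters and not a measured binding site, and counts of this size carry no test.

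Lysine methyltransferases split into the Kmt genes, which include the large H3K4 enzymes and the H4K20 enzymes, and the Setd and Setdb genes. Of the 8 Kmt genes 7 were kept, with a median ratio of −1.13, and of the 10 Setd and Setdb genes 8 were kept, with a median of −0.95. Setd3, a methyltransferase that also acts on actin, had the highest pileups of the class, 114 in control (chr12:108179165-108179931, fold 10.5, −log10 p 77.9, −log10 q 72.5, summit offset 269 bp) and 60 in H1C (chr12:108179187-108179877, fold 7.11, −log10 p 33.3, −log10 q 28.7, summit offset 383 bp). Its peak also lies at the end of the neighbouring gene Ccnk. Kmt5c, which adds further methyl groups to H4K20, had pileups of 104 in control (chr7:4739532-4740389, fold 9.98, −log10 p 69.4, −log10 q 64.3, summit offset 502 bp) and 53 in H1C (chr7:4739655-4740155, fold 5.87, −log10 p 25.5, −log10 q 21.4, summit offset 307 bp). Kmt2e, a member of the Kmt2 group without clear methyltransferase activity, had 101 in control (chr5:23432668-23433572, fold 6.26, −log10 p 47.7, −log10 q 43.6, summit offset 731 bp) and 51 in H1C (chr5:23432719-23433576, fold 4.72, −log10 p 20.1, −log10 q 16.3, summit offset 262 bp). Their ratios were close to one another, −1.07 at Setd3, −1.11 at Kmt5c and −1.13 at Kmt2e, with intervals wholly below 0.

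The lowest and highest ratios of this class stood at Kmt5a and Setd2. Kmt5a, the enzyme that places the first methyl group on H4K20, had pileups of 94 in control (chr5:124439598-124440468, fold 10.6, −log10 p 65.7, −log10 q 60.8, summit offset 243 bp) and 44 in H1C (chr5:124439572-124440284, fold 6.13, −log10 p 22.7, −log10 q 18.7, summit offset 246 bp), a ratio of −1.24 (95% interval −1.79 to −0.71). Setd2, the main enzyme of H3K36 trimethylation, had 59 in control (chr9:110532034-110532605, fold 6.99, −log10 p 32.4, −log10 q 28.8, summit offset 375 bp) and 53 in H1C (chr9:110532262-110532599, fold 7.61, −log10 p 31.6, −log10 q 27.1, summit offset 198 bp), a ratio of −0.30 (95% interval −0.86 to 0.26). The 2 pileups of Setd2 thus differed by less than the counting error, those of Kmt5a by more, and the 2 intervals overlap. Among the H3K4 enzymes, Kmt2a had pileups of 76 in control and 38 in H1C and Kmt2c of 57 in control and 27 in H1C, both with intervals wholly below 0. Kmt2b had 69 in control and 53 in H1C, at a peak shared with the end of Zbtb32, and its interval reached 0.01. Kmt2d's leading peak, with 67 in control and 45 in H1C, lay at the far end of the gene, next to Prkag1, and its own start had a peak of 45 in control and 37 in H1C. Setd1a, an H3K4 enzyme of a different complex, had 56 in control and 29 in H1C. Setd5 had 79 in control and 49 in H1C at its outermost end, and no peak at an annotated start in the promoter table. Setdb1 and Setdb2, of the H3K9 group, had 35 in control and 25 in H1C and 54 in control and 46 in H1C, the latter at a peak shared with Cab39l, and neither differed beyond counting error. Setd4 had 38 in control and 20 in H1C and Setd7 37 in control and 18 in H1C, the lowest H1C pileup of the kept enzyme genes.

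Kmt5b, Setd6 and Setd1b had a gene-end peak in control only. Kmt5b, the close relative of Kmt5c, had a pileup of 65 in control (chr19:3767780-3769104, fold 7.07, −log10 p 35.5, −log10 q 31.8, summit offset 1066 bp), the highest of the control-only enzyme genes. An H1C peak with a pileup of 32 (chr19:3768731-3768996) overlapped this wide control peak just outside the 1000 bp window, with a ratio of −1.16 (95% interval −1.82 to −0.53). Kmt5b was the single control-only enzyme gene of which this held, and the other 10 had no H1C peak over their control peak. Setd6, which methylates a subunit of the NF-kappa B factor, had 34 in control (chr8:95715786-95716090, fold 4.58, −log10 p 14.0, −log10 q 11.0, summit offset 105 bp), at a peak shared with Ndrg4. Setd1b, the relative of Setd1a, had 34 in control (chr5:123141045-123141552, fold 3.08, −log10 p 8.83, −log10 q 6.07, summit offset 104 bp), at a peak shared with Rhof.

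The 4 highest control gene-end pileups of the demethylases were at Kdm4b, Kdm4a, Kdm1b and Kdm3a. Kdm4b, which acts on H3K9 and H3K36, had the highest pileups of the class, 114 in control (chr17:56325495-56326194, fold 9.71, −log10 p 74.1, −log10 q 68.8, summit offset 348 bp) and 74 in H1C (chr17:56325502-56326131, fold 8.15, −log10 p 44.4, −log10 q 39.3, summit offset 319 bp). Kdm4a, of the same family, had 101 in control (chr4:118179527-118180321, fold 12.1, −log10 p 76.4, −log10 q 71.0, summit offset 581 bp) and 48 in H1C (chr4:118179532-118180300, fold 7.61, −log10 p 29.1, −log10 q 24.7, summit offset 576 bp), a ratio of −1.22 (95% interval −1.74 to −0.71) that was the lowest of the class. Kdm1b, a flavin-dependent H3K4 demethylase, had 90 in control (chr13:47043093-47043873, fold 9.93, −log10 p 60.7, −log10 q 56.0, summit offset 256 bp) and 61 in H1C (chr13:47043073-47043699, fold 8.81, −log10 p 39.7, −log10 q 34.7, summit offset 277 bp), at a peak shared with Tpmt. Kdm8, a jumonji enzyme whose histone activity is debated, stood at the other end with pileups of 45 in control (chr7:125444497-125445204, fold 6.53, −log10 p 24.4, −log10 q 21.0, summit offset 511 bp) and 33 in H1C (chr7:125444833-125445196, fold 4.86, −log10 p 14.5, −log10 q 11.0, summit offset 131 bp). Its ratio of −0.59 (95% interval −1.28 to 0.09) was the single one among the 11 kept demethylases whose interval held 0. Kdm1a, the other flavin-dependent H3K4 demethylase, had 46 in control and 23 in H1C, and its ratio was −1.14 (95% interval −1.93 to −0.39). The H3K9 demethylase genes Kdm3a and Kdm3b had 87 in control and 59 in H1C and 63 in control and 34 in H1C. Kdm4d had 47 in control and 25 in H1C, at a peak shared with Cwc15. The H3K4 demethylase genes Kdm5a and Kdm5c had 62 in control and 35 in H1C and 65 in control and 33 in H1C, with the Kdm5a peak shared with Ccdc77, and Kdm7a had 50 in control and 24 in H1C.

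Kdm2a and Kdm2b, relatives with a domain that binds unmethylated CpG DNA, each had an end called in a single list. Kdm2b had a pileup of 24 in control (chr5:122989105-122989468, fold 3.88, −log10 p 9.06, −log10 q 6.29, summit offset 189 bp) and no H1C peak there. An inner annotated start of Kdm2b, however, had a peak in both lists, with pileups of 50 (chr5:122900041-122900615, fold 6.68) and 29 (chr5:122900306-122900599, fold 4.75) and a ratio of −0.93 (95% interval −1.64 to −0.24). Kdm2a, at chr19:4316144-4398721, had a weak gene-end peak in H1C alone, at a peak shared with 9430078G10Rik. Its pileup was 21 (chr19:4398024-4398223, fold 2.89, −log10 p 5.72, −log10 q 2.82, summit offset 112 bp). A stronger peak lay further inside this end of Kdm2a in both lists, with pileups of 86 (chr19:4396924-4397656) and 44 (chr19:4396966-4397577). Its summit was 1551 bp in for control, where it also touched the end of 9430078G10Rik, and 1556 bp in for H1C. Both genes thus had a higher peak in both lists than the one that set their state.

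The control pileups of the 4 kept arginine methyltransferase genes, 45 to 96, lay above those of the 3 control-only genes, 28 to 37. Prmt5, the main symmetric dimethylating enzyme, had pileups of 96 in control (chr14:54517192-54517821, fold 8.74, −log10 p 58.9, −log10 q 54.4, summit offset 297 bp) and 56 in H1C (chr14:54517313-54517835, fold 7.16, −log10 p 31.5, −log10 q 27.1, summit offset 232 bp), a ratio of −0.92 (95% interval −1.42 to −0.43) that was the lowest of the class. Prmt1, the main asymmetric enzyme, had 92 in control (chr7:44986260-44987081, fold 7.13, −log10 p 48.7, −log10 q 44.6, summit offset 403 bp) and 66 in H1C (chr7:44986174-44986954, fold 6.03, −log10 p 31.5, −log10 q 27.1, summit offset 585 bp), a ratio of −0.62 (95% interval −1.10 to −0.15) that was the highest. Prmt7, which adds single methyl groups, had 66 in control (chr8:106210636-106211350, fold 8.55, −log10 p 41.5, −log10 q 37.6, summit offset 365 bp) and 41 in H1C (chr8:106210792-106211104, fold 6.93, −log10 p 23.7, −log10 q 19.7, summit offset 150 bp), at a peak shared with Slc7a6os. Prmt3, which methylates a ribosomal protein, had 45 in control and 30 in H1C. The intervals of all 4 lay wholly below 0. Prmt6, Prmt2 and Prmt9 had a control peak only. Prmt6, an asymmetric enzyme acting on H3R2, had 37 in control (chr3:110250021-110250671, fold 6.29, −log10 p 20.2, −log10 q 16.9, summit offset 186 bp). Prmt2, which also binds nuclear receptors, had 28 in control (chr10:76237441-76238125, fold 5.81, −log10 p 15.2, −log10 q 12.1, summit offset 455 bp). Prmt9, a second symmetric enzyme, had 37 in control (chr8:77549233-77549747, fold 5.67, −log10 p 18.4, −log10 q 15.2, summit offset 151 bp). No H1C peak away from gene ends lay in the bodies or flanks of the arginine methyltransferase genes, where control had 3.

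Among the classical deacetylases, the class I genes Hdac1, Hdac2 and Hdac3, which encode the nuclear enzymes of the large corepressor complexes, were all kept. Hdac1 had the highest gene-end pileups of the class, 76 in control (chr4:129542473-129543011, fold 9.92, −log10 p 52.2, −log10 q 47.9, summit offset 275 bp) and 43 in H1C (chr4:129542560-129543034, fold 6.79, −log10 p 24.2, −log10 q 20.2, summit offset 162 bp). Hdac3, the enzyme of the NCoR and SMRT complexes, had 59 in control (chr18:37954651-37955187, fold 7.11, −log10 p 32.8, −log10 q 29.2, summit offset 355 bp) and 40 in H1C (chr18:37954868-37955210, fold 5.66, −log10 p 19.6, −log10 q 15.7, summit offset 162 bp), at a peak shared with Rell2. Hdac2 had 45 in control (chr10:36974096-36975126, fold 6.55, −log10 p 24.4, −log10 q 21.1, summit offset 399 bp) and 38 in H1C (chr10:36974098-36974678, fold 5.72, −log10 p 18.9, −log10 q 15.2, summit offset 138 bp), and its ratio of −0.39 (95% interval −1.05 to 0.27) was the highest of the class and within counting error. Of the class IIa genes, which encode signal-dependent enzymes, Hdac5 was kept with 58 in control (chr11:102230044-102230417, fold 9.08, −log10 p 38.8, −log10 q 35.0, summit offset 178 bp) and 31 in H1C (chr11:102230141-102230407, fold 4.80, −log10 p 13.7, −log10 q 10.2, summit offset 135 bp). Its ratio of −1.05 (95% interval −1.72 to −0.39) was the lowest of the class. Hdac6, the cytoplasmic class IIb enzyme that acts on tubulin, had 41 in control and 32 in H1C, within counting error. Hdac11, the class IV gene, had a control peak only, with a pileup of 40 in control (chr6:91156501-91156856, fold 6.03, −log10 p 20.7, −log10 q 17.4, summit offset 177 bp). Hdac10, a polyamine deacetylase of class IIb, had likewise 33 in control (chr15:89128357-89128822, fold 4.05, −log10 p 12.03, −log10 q 9.10, summit offset 145 bp). Hdac4, Hdac7 and Hdac9 of class IIa, and Hdac8 of class I, had no gene-end peak in either list. At an inner start, however, Hdac4 had pileups above those of Hdac1, 109 in control and 55 in H1C.

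Sirtuins were the class with every gene in both lists, with control pileups of 30 to 74 and a median of 56. Sirt7, a nucleolar deacylase, had the highest control pileup, 74 in control (chr11:120617621-120618149, fold 8.64, −log10 p 46.3, −log10 q 42.2, summit offset 364 bp) and 43 in H1C (chr11:120617843-120618139, fold 4.74, −log10 p 17.5, −log10 q 13.8, summit offset 124 bp). That peak lay at the far end of the gene, next to Pcyt2, and Sirt7 had no peak at an annotated start in either list. Its ratio of −0.93 (95% interval −1.50 to −0.36) was the lowest of the class. Sirt2, the mainly cytoplasmic tubulin deacetylase, had 72 in control (chr7:28766193-28766915, fold 8.24, −log10 p 43.6, −log10 q 39.7, summit offset 433 bp) and 63 in H1C (chr7:28766343-28766868, fold 7.88, −log10 p 37.6, −log10 q 32.8, summit offset 283 bp), at a peak shared with Nfkbib. Sirt3, the main mitochondrial deacetylase, had 57 in control (chr7:140882193-140882545, fold 6.35, −log10 p 29.0, −log10 q 25.5, summit offset 154 bp) and 37 in H1C (chr7:140881808-140882553, fold 5.51, −log10 p 17.9, −log10 q 14.2, summit offset 541 bp), at a peak shared with Psmd13. Sirt5, a mitochondrial desuccinylase, had 30 in control (chr13:43365353-43365893, fold 5.85, −log10 p 16.1, −log10 q 13.0, summit offset 146 bp) and 27 in H1C (chr13:43365379-43365788, fold 5.15, −log10 p 13.2, −log10 q 9.75, summit offset 149 bp), and its ratio of −0.29 (95% interval −1.10 to 0.51) was the highest of all kept enzyme genes. Sirt1, the nuclear deacetylase best known in stem cell stress, had 38 in control and 32 in H1C. Sirt6, a chromatin-bound enzyme of DNA repair, had 40 in control and 29 in H1C, at a peak shared with Ankrd24. Sirt4 had 56 in control and 38 in H1C at its outermost end, 5653 bp from the nearest annotated start, and its annotated start had a peak of 38 in control only. The intervals of Sirt1, Sirt2, Sirt5 and Sirt6 held 0, and those of Sirt3, Sirt4 and Sirt7 did not.

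Counted by leading gene-end peaks, acetyltransferases had the lowest median control pileup, 38, of the 6 classes. That median takes in the far-end peaks of Kat5 and Kat2a. It leaves out Kat6b, which had no gene-end peak but a control pileup of 126 at an inner annotated start. The ranking therefore holds for the outermost-end rule only, and class medians at annotated starts were not compared. Kat7, the catalytic subunit of the HBO1 complex that acetylates H3K14, had the highest gene-end pileups of the class, 106 in control (chr11:95309498-95310547, fold 9.08, −log10 p 66.2, −log10 q 61.3, summit offset 188 bp) and 64 in H1C (chr11:95309528-95309956, fold 7.03, −log10 p 34.9, −log10 q 30.2, summit offset 157 bp). Kat6a, a MOZ-type enzyme needed for blood stem cells in mice, had 61 in control (chr8:22859002-22859650, fold 7.23, −log10 p 34.2, −log10 q 30.5, summit offset 404 bp) and 28 in H1C (chr8:22859181-22859526, fold 4.13, −log10 p 10.9, −log10 q 7.53, summit offset 192 bp), and its ratio of −1.27 (95% interval −1.97 to −0.60) was the lowest of all kept enzyme genes. Kat14, of the ATAC complex, had 44 in control (chr2:144368709-144369478, fold 6.62, −log10 p 24.2, −log10 q 20.8, summit offset 175 bp) and 25 in H1C (chr2:144368778-144369316, fold 4.81, −log10 p 11.7, −log10 q 8.32, summit offset 116 bp), at a peak shared with Pet117. Kat2b, also called PCAF, had 30 in control (chr17:53566933-53567146, fold 3.60, −log10 p 9.77, −log10 q 6.95, summit offset 53 bp) and 23 in H1C (chr17:53567586-53567785, fold 3.42, −log10 p 7.58, −log10 q 4.48, summit offset 91 bp), a ratio of −0.53 (95% interval −1.38 to 0.31) that was the highest of the class. Its 2 peaks did not overlap, the single case among the 47 kept genes, so this ratio compares different positions. Kat8, the H4K16 acetyltransferase, had 28 in control and 20 in H1C, within counting error. Kat5, the TIP60 enzyme of DNA damage signalling, counted as control only with 38 in control (chr19:5601747-5602237, fold 5.65, −log10 p 18.7, −log10 q 15.6, summit offset 118 bp). That peak lies at the far end of Kat5 and at the end of Rnaseh2c, while the annotated start of Kat5 had a peak in both lists, with pileups of 36 and 28 and a ratio of −0.50 (95% interval −1.27 to 0.25). Kat2a, also called GCN5, had 24 in control (chr11:100704203-100704453, fold 3.28, −log10 p 7.42, −log10 q 4.75, summit offset 84 bp), a weak peak at its far end shared with Dhx58, and no peak at an annotated start in either list.

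Of the 11 genes without a gene-end peak, 4 had a strong peak at an inner annotated start in both lists. Kat6b, the relative of Kat6a, had pileups of 126 (chr14:21500332-21501399, fold 9.24) and 76 (chr14:21500380-21501344, fold 7.33), the highest of any enzyme gene in both lists, with a ratio of −0.87 (95% interval −1.30 to −0.45). Hdac4 had 109 (chr1:92180173-92181084, fold 9.96) and 55 (chr1:92180214-92181005, fold 7.14), a ratio of −1.13 (95% interval −1.62 to −0.65). Kdm6a, the X-linked H3K27 demethylase, had 90 (chrX:18162232-18162906, fold 10.9) and 55 (chrX:18162238-18162721, fold 8.56), a ratio of −0.85 (95% interval −1.36 to −0.35). Kdm4c, of the Kdm4 family, had 62 (chr4:74251642-74252547, fold 9.35) and 31 (chr4:74251725-74252397, fold 5.28), a ratio of −1.14 (95% interval −1.81 to −0.50). Such cases were 4 of the 10 enzyme genes with no gene-end peak and an annotated start (40%), against 4.40% of all such genes. The count was made after seeing the data, and no test of it was made. The promoters of these sets also differ, with a median G and C content of 55.4% in the enzyme genes and 49.6% in all such genes. Kdm5b had a peak 3076 bp outside the gene, with pileups of 54 and 27, and Hdac8 had 1 weak peak, in control.

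Counted at annotated transcript starts instead of outermost ends, an alternative chosen after seeing the data, a larger share of a smaller number of enzyme genes was kept. Of the 58 genes with an annotated start, 49 had a control peak within 1000 bp of one (84.5%), against 49.1% of all genes. Of these 43 also had an H1C peak, 87.8% (75.2 to 95.4), against 72.9% of all genes. The 6 in control only were Prmt2, Prmt6, Prmt9, Hdac11, Setd6 and Sirt4. Prmt2, Prmt6, Prmt9, Hdac11 and Setd6 were thus in control only by both measures, and 3 of these are arginine methyltransferases. For each of these genes both measures used the same control peak, so their agreement is not a separate check. Their control pileups were low, from 28 (Prmt2) to 40 (Hdac11). Of all genes with a gene-end pileup above 20 and up to 30, 23.3% were kept, and above 30 and up to 40, 51.6%.

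Peaks of both lists mostly lay at the same place. In 46 of the 47 kept genes the leading peaks overlapped (97.9%), against 97.5% of all genes. The median summit shift was 30.5 bp against 24 bp, and 60.9% of shifts were within 50 bp against 71.5%. The H1C peak was the narrower in 42 of the 46 (91.3%), against 91.5% of all genes. Median widths at these genes were 704 bp in control and 422 bp in H1C. The summit offset had a median of 264.5 bp in control and 162 bp in H1C. As a share of the peak's width the offset had a median of 48.4% in control and 44.9% in H1C. The control summit lay a median of 107 bp from the nearest annotated start, against 78 bp over all genes. Over the leading gene-end peaks, −log10 p ran from 7.42 to 77.9 in control and from 5.04 to 44.4 in H1C, and −log10 q from 4.75 to 72.5 and from 2.23 to 39.3. Of the 58 leading control peaks, 18 also lay at the end of a neighbouring gene, and 14 of those 18 were kept, as were 33 of the other 40. A shared peak cannot be assigned to either gene.

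Away from their gene ends the enzyme genes had 111 control peaks, of which 48 overlapped an H1C peak (43.2%, 33.9 to 53.0), against 30.9% over all protein-coding genes. Leaving out peaks at the end of any protein-coding gene, it was 35 of 85 (41.2%, 30.6 to 52.4), against 22.0% over all genes. Peaks of 1 gene share a locus and are not replicates. The median control pileup was 51.5 where an H1C peak overlapped and 27 where none did. By class the overlapping share was 19 of 31 for demethylases, 7 of 12 for acetyltransferases, 5 of 14 for sirtuins, 9 of 27 for classical deacetylases, 8 of 24 for lysine methyltransferases and 0 of 3 for arginine methyltransferases. These counts, and the 85, include peaks at annotated starts inside the genes. Those of Kat6b, Hdac4, Kdm6a, Kdm4c, Kdm2b, Kat5 and Kmt2d overlapped an H1C peak, and those of Sirt4 and Kmt5a did not.

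The genes with most such peaks were Hdac4 and Kdm2b with 7 each in control, Hdac9 and Kdm6b with 6, and Hdac7, Kdm2a, Setd1b, Sirt7 and Kmt5a with 4. Of the 7 of Hdac4, a large gene whose enzyme moves between nucleus and cytoplasm, 2 overlapped an H1C peak, the inner start and a peak with pileups of 41 (chr1:92079891-92080506, fold 5.50) and 25 (chr1:92079962-92080472, fold 4.00). The other 5 had pileups of 22 to 38. Of the 7 of Kdm2b, 4 overlapped. Of the 6 of Kdm6b, the second H3K27 demethylase gene, 5 overlapped, and the 2 strongest had pileups of 75 (chr11:69408576-69408928, fold 4.82) and 65 (chr11:69409327-69409768, fold 3.95) in control against 38 (chr11:69408658-69408888, fold 3.46) and 46 (chr11:69409500-69409803, fold 4.02) in H1C. Hdac9 had weak peaks throughout, 15 to 25 in control, of which 3 of 6 overlapped. Hdac7 had a peak inside the gene with pileups of 85 (chr15:97825047-97825498, fold 7.03) and 44 (chr15:97825059-97825430, fold 4.70). None of the 4 around Kmt5a, with pileups of 14 to 30 and some at inner annotated starts, overlapped an H1C peak.

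**Figure D5:**
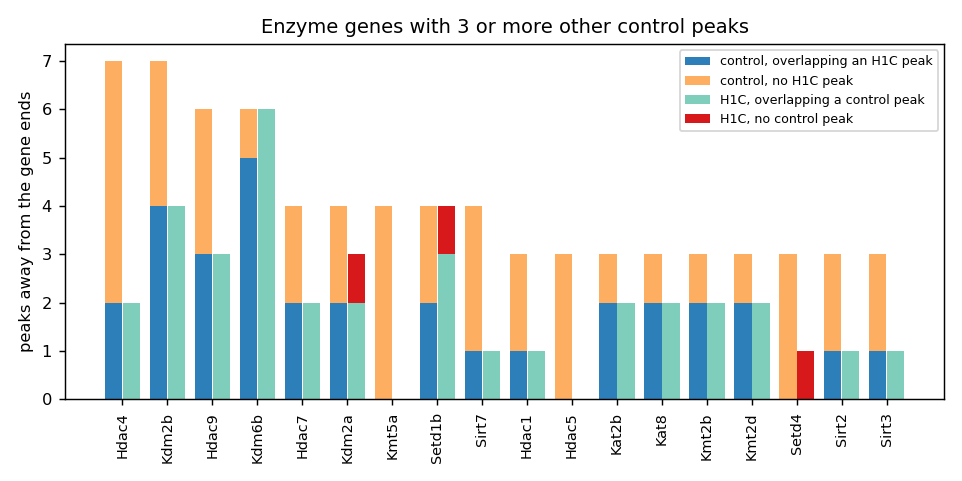
Number of peaks away from the gene ends (vertical axis) for enzyme genes with 3 or more in control (horizontal axis), with control on the left and H1C on the right of each pair. Blue and green parts overlap a peak of the other list, and Kdm6b has the most overlapping ones, 5 of 6.

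H1C had 55 such peaks, of which 51 overlapped a control peak and 4 did not, against 14.8% of such H1C peaks over all genes without overlap. Those 4 had folds of 2.83 to 3.33, under the median of 4.02 of the 55. Their pileups were 17 to 32, with a median of 23.5, against a median of 29 for the 55. They lay 9747 bp outside Kdm2a at the end of Grk2 (chr19:4306287-4306559, pileup 32, fold 3.13, −log10 p 8.62, −log10 q 5.44, summit offset 110 bp) and inside Setd1b (chr5:123150131-123150330, pileup 26, fold 3.20, −log10 p 7.60, −log10 q 4.50, summit offset 98 bp). The others lay 6605 bp outside Hdac10 (chr15:89135259-89135464, pileup 21, fold 2.83, −log10 p 5.56, −log10 q 2.67, summit offset 46 bp) and 3768 bp outside Setd4 (chr16:93579626-93579825, pileup 17, fold 3.33, −log10 p 6.02, −log10 q 3.06, summit offset 63 bp).

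Histone-modifying enzymes with other names were also mostly kept at their gene ends. Of 32 such genes 21 had a gene-end peak in both lists, 4 in control only, 1 in H1C only and 6 in neither, a kept share of 84.0% (63.9 to 95.5) against 71% of all genes, and the median ratio was −0.68 against −0.85. A control gene-end peak was thus present at 25 of the 32 (78.1%), against 46.9% of all genes, and the H1C-only share of all genes is 0.288%. Away from gene ends, 16 of their 57 control peaks overlapped an H1C peak (28.1%, 17.0 to 41.5), against 30.9% over all protein-coding genes. It was 43.2% (33.9 to 53.0) of the 111 above, with overlapping intervals. Of their 24 H1C peaks 7 overlapped no control peak (29.2%), against 14.8% over all genes and 4 of the 55 above. The highest control pileups of the kept genes were those of Carm1, an arginine methyltransferase also called Prmt4, with 97 and 69, Jmjd6 with 89 and 57, and Nsd3, an H3K36 methyltransferase, with 87 and 57. The Polycomb methyltransferase gene Ezh2 had 68 and 51. Crebbp, an acetyltransferase that serves as a transcriptional coactivator, had 57 and 20, a ratio of −1.65 (95% interval −2.47 to −0.90), while its relative Ep300 had 66 and 46, a ratio of −0.66 (95% interval −1.24 to −0.10). The 2 intervals overlap, and Crebbp and Ep300 were picked after their values were seen. Control only were Prdm2 (pileup 28), Smyd3 (28), Smyd2 (27) and Jmjd1c (24), and H1C only was Smyd5 (23).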

How the data were processed

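ATAC-seq had been run on 2 libraries, 1 per group. Per the submitters' processing notes, reads were handled with Trim Galore 0.4.4 and Bowtie2 2.2.9 on build mm10, and Picard, featureCounts and MACS2 are also named. Their settings, and whether duplicates were removed or reads shifted to the cut site, are not given in the sources used here, and either would move summit heights and positions. The authors deposited 1 peak list per library, so peaks were not called on pooled samples. The deposited fold is a ratio of summit pileup to local background, where 1 was first added to both. The p and q values, deposited as −log10, are the peak caller's. The deposited score was 10 times −log10 q, cut to a whole number.

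The pileup and the local background were solved from fold and Poisson −log10 p, accepting whole numbers within a relative tolerance of 0.0001, in scripts tested on simulated data. It failed for 1 of 13156 H1C peaks and none of 32005 control peaks. The lists hold no read totals, so depth was taken as the genome-wide background. Gene positions came from a RefSeq table of the same build, and starts and promoters from RefSeq for 58 of the 70 genes. A peak overlapped another where they shared at least 1 bp. With 1 library per group there is no test and no p-value between groups. Shares have exact Clopper-Pearson and ratios exact conditional binomial 95% intervals, which cover counting error only. Amplified reads are not independent molecules, so the intervals may be too narrow.

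The enzyme genes, the other gene lists and the motifs were chosen with earlier results of these data known. Full values were given for up to 3 control-only genes by fold and 3 kept genes by control pileup in each class, the highest and lowest ratio in each class, each gene in H1C only, and each other H1C peak without a control peak. For the genes with most other peaks, the strongest ones were given. Of the other enzymes and the partner subunits, 3 control-only genes by fold and 3 kept genes by pileup were named, with additions as stated. Scripts ran under Python 3.11.15 with scipy 1.17.1, pandas 2.3.3 and numpy 2.4.6, and figures were drawn with matplotlib 3.10.9.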

Additional observations from a re-analysis of the deposited data

How the results depend on the processing

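No paired analysis was possible because control and H1C had a single library each. Of 122 alternatives to 21 results, 105 stayed within the interval, the quartiles or 1.5 times of the value, 17 moved, and 0 changed sign. Only the median ratios can change sign, and shares, counts and folds cannot. The class intervals are wide, so staying within them shows little. Acetyltransferase shares of 50% and 87.5%, for example, both stayed within the interval of the 71.4% (29.0 to 96.3). The cause was not tested for those that moved. With the control list shortened to the length of the H1C list, demethylase genes were kept at 100%, 7 enzyme genes were in control only and 3 in H1C only, and 72.7% of other control peaks overlapped. Windows of 2500 bp, or a stricter −log10 q of 5 or more, left 0 genes in H1C only. Acetyltransferase genes were kept at 100% when the gene start alone was used, and at annotated starts, added after seeing the data, both they and the demethylase genes were kept at 100%. At annotated starts 5 of 6 sirtuin genes were kept (83.3%), against all 7 at gene ends. Scaled by local background, which takes in reads of the peaks themselves, the median ratio was −0.49 for all enzyme genes, −0.69 for demethylases, −0.44 for arginine methyltransferases, −0.36 for classical deacetylases, −0.27 for sirtuins and −0.53 for acetyltransferases. Unscaled, it was −0.64 for arginine methyltransferases, and at control pileups of at least 60 it was −1.07 for acetyltransferases. Depth limits the weak end: the lowest pileup called was 12 in control and 14 in H1C, so a gene without a peak may be accessible below that.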

Other observations

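Genes for subunits that work with these enzymes, such as scaffolds, readers and corepressors, were mostly accessible in both libraries. Of 43 such genes 35 had a gene-end peak in both lists, 4 in control only and 4 in neither, a kept share of 89.7% (exact Clopper-Pearson 95% interval 75.8 to 97.1), against 71% over all genes. A control gene-end peak was thus present at 39 of the 43 (90.7%), against 46.9% of all genes. In H1C 35 had one, against 33.6% of all genes, and 52.8% of all genes had none in either list. On the log2 scale, the median of their depth-scaled pileup ratios, H1C over control, was −0.76, against −0.85 for all genes. The highest control pileups among the kept genes were those of Rcor1, the partner of the demethylase Kdm1a, with 115 in control and 54 in H1C, Pwwp2a, which binds the histone variant H2A.Z, with 110 and 54, and Gatad2a, a subunit of the NuRD deacetylase complex, with 109 and 77. Gatad2b, the relative of Gatad2a, had 102 and 59. Trim28, a corepressor that recruits the methyltransferase Setdb1, had 54 and 23, with a ratio of −1.37 (95% interval −2.14 to −0.64), the lowest of the list. Mta3, of the NuRD complex, had 27 and 28, with a ratio of −0.09 (−0.91 to 0.73), the highest. Trim28, Mta3 and Gatad2b were named after their values were seen.

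The subunits in control only were Brd1, a reader in acetyltransferase complexes (pileup 32, fold 5.32), Rbbp5, a core subunit of the H3K4 methyltransferase complexes (32, fold 4.88), Sin3a, the scaffold of a deacetylase complex (57, fold 2.67), and Mta1, of the NuRD complex (19, fold 2.65). Of the core subunits that the H3K4 methyltransferases share, Wdr5 was kept with pileups of 44 and 33, Rbbp5 was in control only, and Ash2l and Dpy30 had no gene-end peak in either list. No gene of this list had a gene-end peak in H1C alone, a state found at only 0.288% of all genes.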
